A study of Mus musculus with 2 samples.

Results

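Wnt ligands are secreted, lipid-modified glycoproteins that signal over short distances between neighbouring cells. Porcn attaches the lipid and Wls carries the ligand to the cell surface, where Frizzled receptors with Lrp5 or Lrp6 pass the signal to beta-catenin, or with other co-receptors to pathways that do not use it. In skin and gut, stem cells and the cells around them make Wnt ligands, and the signal helps to keep stem cells dividing. The 9 ligands Wnt3, Wnt3a, Wnt4, Wnt5a, Wnt6, Wnt7b, Wnt10a, Wnt10b and Wnt16 were followed here through the cells of the mouse anorectal junction, where the stratified anal epithelium meets the glandular rectum. They were chosen by name, with earlier results of these data known. The normal library counted 31054 features and the wounded library 32285, and all 9 are in both. They held 97.9% of the UMIs (unique molecules counted) of all 19 Wnt ligands in the deposited cells of the normal library and 97.5% in those of the wounded library. Of the other 10 ligands, 5 were at 0 UMIs in the deposited normal cells and 3 in the deposited wounded cells. As earlier results were known when the 9 were chosen, these shares describe the list and are not read as a result.

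Both libraries were made with the 10x 3' method from the pooled anorectal tissue of at least 5 K17CreERT2;R26R-GFP mice of the C57/BL6J strain. In these mice tamoxifen switches on the ZsGreen1 reporter in cells that use the Krt17 promoter, and mice of both groups received tamoxifen. The normal library came from unwounded tissue. The wounded library came from tissue taken 1 week after the rectal crypts near the junction had been removed with hot EDTA and an electric brush. The wounded mice were given tamoxifen 2 times. The study's wounding experiments used mice aged 2 to 4 months, which were injected with METACAM before the wound. Cells were sorted for Epcam and viability, and the study's gate left out cells with Pdgfra, CD31, CD45 or CD11b on their surface. The reporter was not used here to choose cells.

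The normal library held 939 cells with deposited names (432 Anal Canal, 257 Basal, 187 Suprabasal and 63 Rectum) and the wounded library 4147 (1032 Suprabasal, 991 Regeneration, 838 Wound_Stress, 573 Basal, 397 Rectum and 316 Hybrid). A further 610 and 1078 cells passed the same filters but are not in the tables of named cells. Median depths were 9724 and 10077 UMIs per named cell and 9041 and 9897 UMIs per cell outside the tables, with a low value of 2390 in Hybrid, and 1 barcode was shared by the libraries. Levels are given in CPM, the UMIs of a gene per 1000000 UMIs of a cell group, summed over its cells, with a 95% Poisson interval in brackets, and as UMIs come from the 3' end they were not divided by length. Since each condition is 1 library, no test between conditions or clusters was made, intervals cover counting error only, and condition and library cannot be told apart.

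The same name did not hold like cells in the 2 tables. Over 11557 genes, with the Wnt pathway genes left out, the profile of the wounded Basal cluster correlated with that of normal Anal Canal at r = 0.931 and with that of normal Basal at r = 0.836. Wounded Regeneration was most like normal Basal (r = 0.90), wounded Suprabasal most like normal Suprabasal (r = 0.930), and the 2 Rectum clusters most like each other (r = 0.913). These r values are across genes, which are not independent. Only deposited clusters were compared in this way, and cells outside the tables were not. The 7 markers of suprabasal stratified cells (among them Krt10 and Krt13) summed to 10156 CPM in wounded Basal, above the 5321 CPM of wounded Suprabasal and close to the 10248 CPM of normal Anal Canal, while normal Basal had 651 CPM. Markers of basal stratified cells (among them Krt5 and Krt15) summed to 13016 CPM in wounded Basal, so this cluster carried both lists. The deposited names are kept below, and levels of wounded Basal are set beside both normal Basal and normal Anal Canal.

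Upstream sequence was available for 6 of the 9 ligands (RefSeq, GRCm38.p6, 250 bases before to 50 after the start). Shown here are those of Wnt3 and Wnt16, which shared 1 pattern across clusters (below), and that of Wnt6, which had another. Capitals mark matches to the GC box GGGCGG on either strand, overlapping matches included.
Wnt3 (chr11:103773925-103774224, plus strand): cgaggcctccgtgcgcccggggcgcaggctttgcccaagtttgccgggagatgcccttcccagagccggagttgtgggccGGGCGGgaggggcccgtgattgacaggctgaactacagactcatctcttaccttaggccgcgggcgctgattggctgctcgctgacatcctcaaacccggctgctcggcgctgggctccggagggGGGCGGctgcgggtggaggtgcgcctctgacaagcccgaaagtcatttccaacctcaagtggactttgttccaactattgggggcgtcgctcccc
Wnt16 (chr6:22287977-22288276, plus strand): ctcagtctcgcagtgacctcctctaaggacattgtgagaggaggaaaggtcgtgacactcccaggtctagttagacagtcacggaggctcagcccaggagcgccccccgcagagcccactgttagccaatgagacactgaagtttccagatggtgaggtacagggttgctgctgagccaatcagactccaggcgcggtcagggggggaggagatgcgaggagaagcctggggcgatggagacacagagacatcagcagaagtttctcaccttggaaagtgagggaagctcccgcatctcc
Wnt6 (chr1:74771642-74771941, plus strand): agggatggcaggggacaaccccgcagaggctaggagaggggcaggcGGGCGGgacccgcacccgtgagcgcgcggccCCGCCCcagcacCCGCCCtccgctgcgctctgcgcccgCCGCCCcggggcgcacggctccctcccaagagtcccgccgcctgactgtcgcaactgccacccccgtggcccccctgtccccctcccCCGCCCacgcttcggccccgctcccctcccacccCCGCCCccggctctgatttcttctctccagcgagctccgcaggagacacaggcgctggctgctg
The GC box occurred 2 times in the Wnt3 sequence, 6 times in that of Wnt6 and not in that of Wnt16. Of the sequences not shown, that of Wnt3a had it 9 times, that of Wnt4 8 times and that of Wnt10b not at all. As Wnt3a shared the pattern of Wnt3 and Wnt16, the number of GC boxes did not follow the pattern across clusters. The GC box is in 35.7% of the 32851 mouse sequences of the same length. The letters of AP-1 (TGANTCA), TCF/LEF (CTTTGAT) and the TATA box (TATAAA), searched on both strands, were in none of the 6 ligand sequences and in 7.81%, 3.73% and 13.6% of all. G and C made up 65.7% of the Wnt3 window, 58.0% of the Wnt16 window and 76.7% of the Wnt6 window, against a median of 52.7% over all. In the windows not shown they made up 86.3% for Wnt3a, 84.3% for Wnt4 and 66.3% for Wnt10b. Such matches describe letters, not binding.

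Wnt4 was the ligand with the most UMIs in the study, 1078 in the deposited normal cells and 4870 in the deposited wounded cells. The gene (ENSMUSG00000036856, chromosome 4, 137277489 to 137299726, plus strand, GRCm38) codes for a ligand known from kidney and gonad development. In the normal library Wnt4 was at 175 CPM (163 to 188) in Anal Canal, 66.6 CPM (56.4 to 78.1) in Suprabasal and 58.8 CPM (50 to 68.7) in Basal. It was not found in the 63 Rectum cells, (0 UMIs, interval 0 to 5.24 CPM, with 3 UMIs being 4.26 CPM). In the wounded library it was at 309 CPM (295 to 324) in Basal, 109 CPM in Suprabasal, 87.4 CPM in Wound_Stress, 79.0 CPM in Regeneration, 74.8 CPM in Hybrid and 9.73 CPM in Rectum. Wnt4 was thus high in the same pair of clusters, normal Anal Canal and wounded Basal, and the intervals of Basal and Suprabasal in the normal library overlapped, as did those of Wound_Stress, Regeneration and Hybrid in the wounded library.

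**Figure D1:**
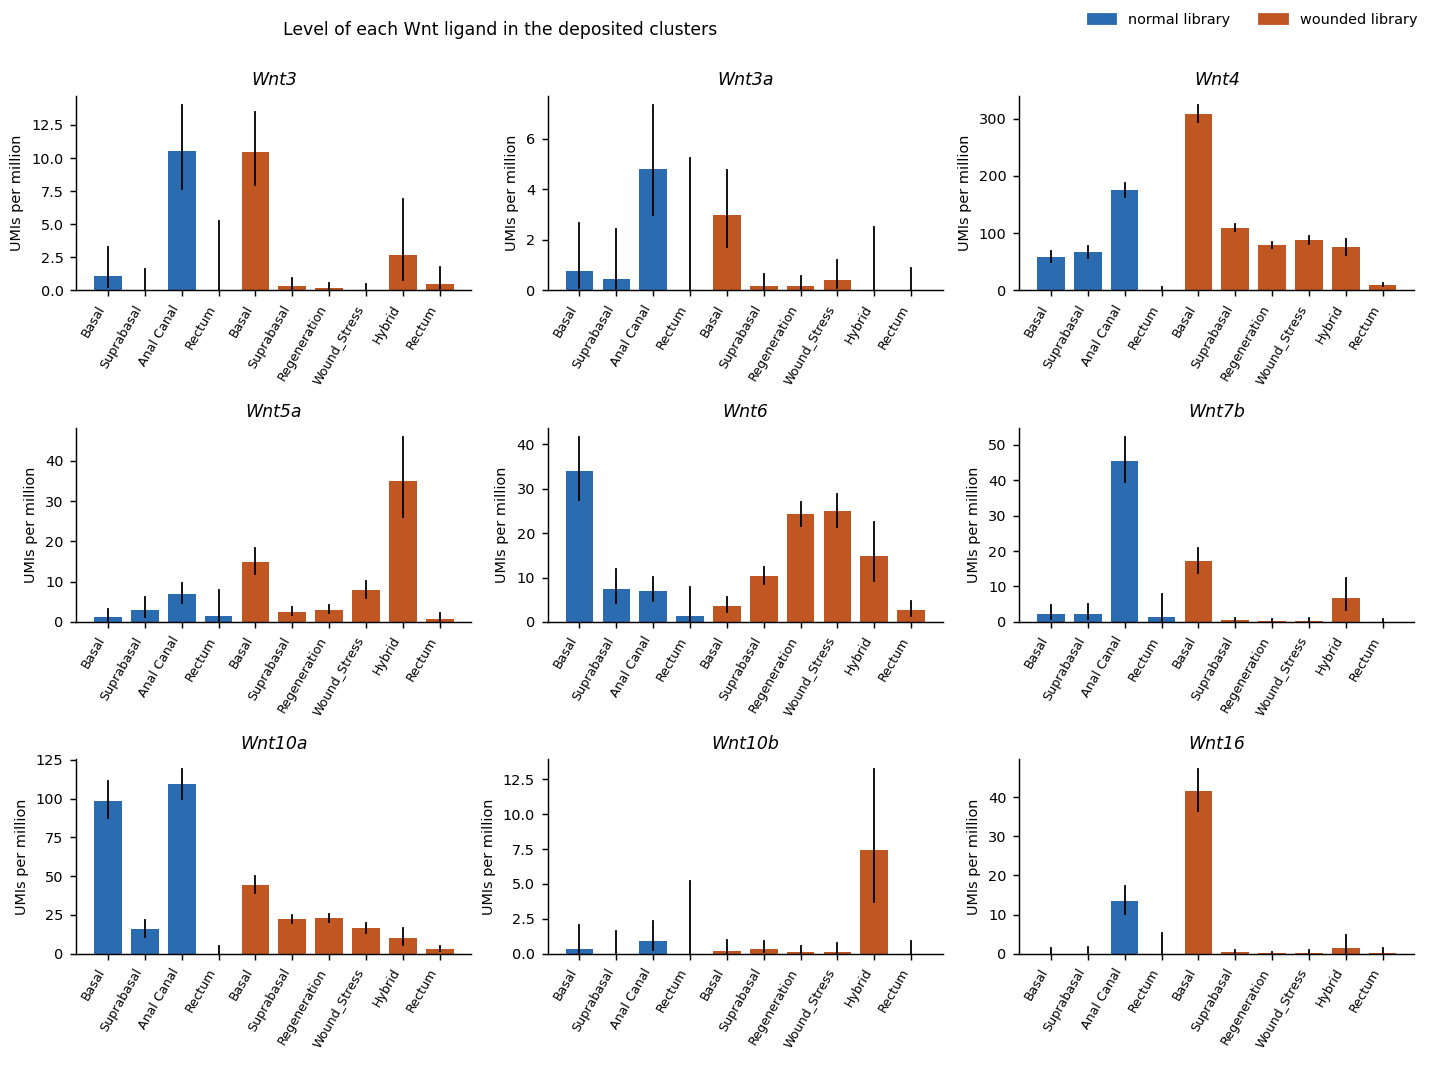
Level of each of the 9 Wnt ligands, in CPM, in the 4 deposited clusters of the normal library (blue) and the 6 of the wounded library (orange), with bars for the level, lines for the 95% Poisson interval and a separate axis for each gene. Wnt3, Wnt3a, Wnt7b and Wnt16 are seen in normal Anal Canal and wounded Basal, Wnt6 in normal Basal, Regeneration and Wound_Stress, and Wnt5a and Wnt10b are highest in Hybrid.

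Within the normal library, 8 ligands had at least 20 UMIs in Anal Canal and Basal together, and 6 of them were at least 2-fold higher in Anal Canal and 1 was at least 2-fold lower. Of all 10571 genes with that many UMIs, 8.73% were at least 2-fold higher and 10.2% lower, and the median log2 ratio was 2.66 over the ligands (Wnt16 at its bound) and 0.02 over all genes. Wnt7b, a ligand known from lung and kidney development that acts through beta-catenin, was at 45.4 CPM (39.3 to 52.2, 199 UMIs) in Anal Canal and 2.22 CPM (6 UMIs) in Basal, a log2 ratio of 4.36 (3.21 to 5.82). Wnt3 had 46 UMIs in Anal Canal and 3 in Basal, a log2 ratio of 3.24 (1.61 to 5.57). Both Wnt3 and Wnt3a are classical activators of beta-catenin, and Wnt3 is made by Paneth cells in the small intestine. Wnt3a had 21 UMIs and 2 UMIs, a log2 ratio of 2.70 (0.66 to 5.83), and Wnt5a had 30 and 3 UMIs, a log2 ratio of 2.63 (0.94 to 4.98). Wnt16 had 59 UMIs in Anal Canal, 13.5 CPM (10.3 to 17.4), and 0 in each of the other 3 normal clusters, so that it was at least 12.1-fold higher than in Basal. These 5 ligands rest on few UMIs in Basal, and their ratios are wide for that reason. All 5 reached 20 UMIs through Anal Canal alone, so the count of 6 and the median of 2.66 lean toward ligands high there. The ratio of Wnt4, 1.57 (1.33 to 1.83), rests on 767 and 159 UMIs.

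Wnt6 and Wnt10a did not share this pattern. They are neighbours on chromosome 1, with Wnt6 at 74771892 to 74785322 and Wnt10a at 74791516 to 74804179 on the same strand, 6193 bases apart with no gene between. Wnt6 was at 34.0 CPM (27.4 to 41.7) in Basal, 7.45 CPM in Suprabasal and 7.08 CPM (4.81 to 10) in Anal Canal, a log2 ratio of -2.27 (-2.90 to -1.66) of Anal Canal over Basal. Wnt10a, which is needed for hair follicles and teeth, was at 98.7 CPM (87.2 to 111) in Basal and 109 CPM (99.5 to 119) in Anal Canal, with overlapping intervals, and at 15.8 CPM (11 to 21.8) in Suprabasal. So normal Basal had mainly Wnt10a, Wnt4 and Wnt6, while Suprabasal had mainly Wnt4. Of the 3 ligands that could be compared between Suprabasal and Basal, 2 were at least 2-fold lower, against 17.1% of all genes, and none was 2-fold higher, against 6.57%. Those were Wnt10a (log2 ratio -2.65, -3.19 to -2.14) and Wnt6 (-2.19, -3.03 to -1.43), and Wnt4 had a log2 ratio of 0.18 (-0.15 to 0.51). The median log2 ratio of all genes was -0.29 in this comparison. Wnt6, with 17 UMIs in Suprabasal and 92 in Basal, reached 20 UMIs through Basal alone.

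The make-up of the ligand UMIs differed between clusters accordingly. In normal Basal, 50.1% of the 533 ligand UMIs were Wnt10a, 29.8% Wnt4 and 17.3% Wnt6. Anal Canal had 1635 ligand UMIs, with 46.9% Wnt4, 29.2% Wnt10a and 12.2% Wnt7b. Suprabasal had 218, with 69.7% Wnt4 (63.2 to 75.7). Summed over the 9 ligands, the level was 373 CPM in Anal Canal, 197 CPM in Basal, 95.5 CPM in Suprabasal and 4.26 CPM in Rectum. Among the 4 deposited clusters of the normal library, Anal Canal thus had the highest summed ligand level, and it was the 1 cluster with UMIs of all 9 ligands.

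**Figure D2:**
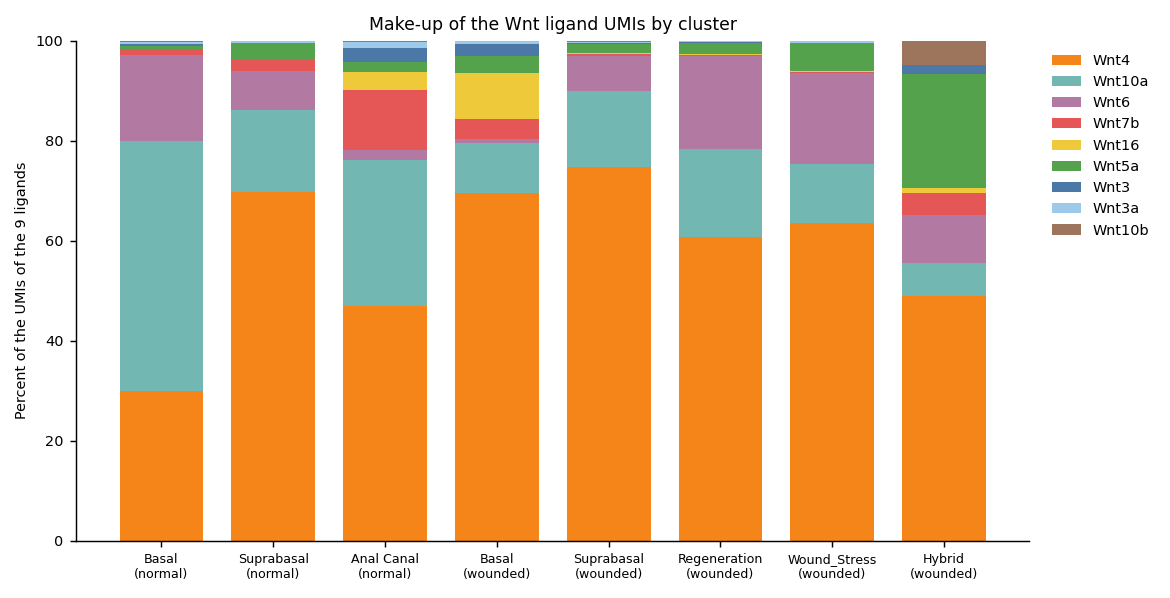
Share of each ligand among the UMIs of the 9 Wnt ligands, in percent, for the 8 deposited clusters other than Rectum, with each bar summing to 100%. Wnt10a makes up 50.1% in normal Basal and 10.0% in wounded Basal, where Wnt4 makes up 69.6% and Wnt16 9.37%.

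In the wounded library the 4 ligands of normal Anal Canal were found in the cluster named Basal. Wnt16 had 239 UMIs there, 41.6 CPM (36.5 to 47.3), and 11 UMIs in the 5 other clusters together. Wnt7b had 98 UMIs, 17.1 CPM (13.9 to 20.8), and 23 elsewhere, of which 10 were in Hybrid. Wnt3 had 60 UMIs, 10.5 CPM (7.98 to 13.5), and 12 elsewhere. Wnt3a had 17 UMIs, 2.96 CPM, and 7 elsewhere. Each of the 4 was thus nearly absent from Suprabasal, Regeneration and Wound_Stress, with levels from 0 to 0.518 CPM. Positions of the 4 are chromosome 6, 22288227 to 22298522 for Wnt16, chromosome 15, 85535437 to 85582473 for Wnt7b, and chromosome 11 for Wnt3 (103774150 to 103817957) and Wnt3a (59248033 to 59290752). They lie on 3 chromosomes and are not neighbours of one another. On the opposite strand AU022754 overlaps Wnt7b, Gm29539 overlaps Wnt6 and Gm2670 overlaps Wnt5a.

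Against wounded Basal, 7 ligands could be compared in Suprabasal, of which 5 were at least 2-fold lower and 1 at least 2-fold higher, with 11.3% of all genes 2-fold lower and 9.85% higher. The same numbers, 5 lower and 1 higher of 7, were found in Regeneration (13.8% and 11.8% of all genes), and in Wound_Stress 6 were lower and 1 higher of 8 (12.8% and 10.3% of all genes). Wnt3, Wnt7b and Wnt16 reached 20 UMIs through wounded Basal alone, so the counts of lower ligands lean on ligands high there. The ligand at least 2-fold higher was Wnt6 in each of the 3 clusters. It was at 3.66 CPM (2.26 to 5.59, 21 UMIs) in wounded Basal, 10.3 CPM (8.52 to 12.3, 119 UMIs) in Suprabasal, 24.2 CPM (21.6 to 27.1, 315 UMIs) in Regeneration and 24.9 CPM (21.5 to 28.8, 186 UMIs) in Wound_Stress. Levels of Wnt6 in the 2 wound clusters overlapped and were the highest of the wounded library. Normal Basal, of the deposited normal clusters the one most like Regeneration, was the highest of the normal library. Log2 ratios over wounded Basal were 1.49 (0.81 to 2.23), 2.73 (2.09 to 3.44) and 2.77 (2.11 to 3.49) in the 3 clusters. Wnt16 stood at the other end, with log2 ratios of -6.91 (-8.80 to -5.54), -8.08 (-11.13 to -6.21) and -7.28 (-10.33 to -5.41).

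Wnt10a was at 44.4 CPM (39.1 to 50.2) in wounded Basal, 23.0 CPM (20.5 to 25.8) in Regeneration, 22.3 CPM (19.7 to 25.2) in Suprabasal, 16.4 CPM (13.6 to 19.5) in Wound_Stress and 10.1 CPM (5.66 to 16.7) in Hybrid. The intervals of Regeneration and Suprabasal overlapped, and those of Wound_Stress and Hybrid did. Every wounded cluster was thus below normal Basal and normal Anal Canal, and the intervals of Regeneration, Suprabasal, Wound_Stress and Hybrid overlapped that of normal Suprabasal. Between the 2 wound clusters, 1 of 4 ligands was at least 2-fold higher in Wound_Stress and none lower, with 4.23% of all genes higher and 6.47% lower. This was Wnt5a, at 7.91 CPM (6.02 to 10.2, 59 UMIs) in Wound_Stress and 3.0 CPM (2.13 to 4.1, 39 UMIs) in Regeneration, a log2 ratio of 1.40 (0.79 to 2.02). The 7 fibroblast markers summed to 5.90 CPM in Wound_Stress, with 1 at 0, and to 18.0 CPM in Regeneration, with none at 0.

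Hybrid, which the study placed between transition zone and rectum, had its own make-up of ligands. Wnt5a (chromosome 14, 28504750 to 28527448, plus strand), a ligand that mostly acts without beta-catenin, was at 35.1 CPM (26.2 to 46, 52 UMIs), the highest among the 6 wounded clusters. The fibroblast markers summed to 157 CPM in Hybrid (3 of 7 at 0) and to 246 CPM in wounded Rectum (none at 0), where Wnt5a was at 0.730 CPM. By the mean of per-cell CPM the Hybrid level was 21.9 CPM, and from the authors' whole numbers it was 18.9 CPM. Wnt10b had 11 of its 19 UMIs in deposited wounded cells here, 7.42 CPM (3.70 to 13.3). Of 7 ligands compared with wounded Basal, 2 were at least 2-fold higher (Wnt5a and Wnt6) and 5 at least 2-fold lower, with 13.5% of all genes higher and 6.76% lower. Wnt3, Wnt7b, Wnt10a and Wnt16 reached 20 UMIs through wounded Basal alone, so the count of lower ligands leans on ligands high there. The cells behind these UMIs were not of 1 kind. When all filtered cells of the wounded library were clustered again, 29 of the 316 Hybrid cells fell in a cluster without a name. Its leading genes were of the cell cycle, among them Rrm2, Esco2 and Kif11. These 29 cells held 36 of the 52 Wnt5a UMIs and 4 of the 11 Wnt10b UMIs. They also held 37 of the 63 UMIs of Lef1, the Wnt effector typical of hair shaft precursors. Another 74 Hybrid cells, in a cluster led by suprabasal markers, held 13 Wnt5a, 6 Wnt10b and 19 Lef1 UMIs. The 8 inner root sheath and hair shaft markers summed to 1416 CPM in the 29 cells and 6874 CPM in the 74, against 1924 CPM in Hybrid as a whole and 20.4 to 356 CPM in the wounded clusters Suprabasal, Regeneration, Wound_Stress and Basal. The 24 Hybrid cells in the rebuilt rectum cluster and the 27 in the enteroendocrine cluster held no UMI of Wnt5a or Wnt10b. The parts of hair cells and of cycling cells in the Hybrid levels were not tested beyond these counts.

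Rectum cells had few ligand UMIs in either library. The 63 normal cells held 3 UMIs (1 each of Wnt5a, Wnt6 and Wnt7b), and the 397 wounded cells held 69, of which 40 were Wnt4, 12 Wnt10a and 11 Wnt6. Against the other clusters, 5 of 8 ligands were at least 2-fold lower in normal Rectum (14.9% of all genes) and 7 of 8 in wounded Rectum (16.0%), and none was 2-fold higher (17.5% and 17.9%). Apart from Wnt4 in the wounded library, the ligands reached 20 UMIs through the other clusters alone, so these counts lean toward lower ligands. Wnt4 was at least 27.0-fold lower in normal Rectum and 12.6-fold lower in wounded Rectum. Keratins of stratified cells gave a level to set beside these. In wounded Rectum, Krt14 was at 7.10%, Krt5 at 7.44% and Krt15 at 10.2% of their level in the other clusters, and Wnt4 was at 7.91% (5.64 to 10.8), Wnt10a at 12.1% (6.22 to 21.2) and Wnt6 at 15.8% (7.87 to 28.5). The intervals of Wnt4 and Wnt10a held the percentages of all 3 keratins, and that of Wnt6 held Krt15 but lay above Krt14 and Krt5. Given keratin percentages of this size, no expression of Wnt4 or Wnt10a is read from the rectal cells, and the 11 UMIs of Wnt6 were not resolved further. In normal Rectum, Krt14 was at 1.08% and Wnt4 at 0% (up to 4.56%).

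Between libraries, over all named cells, ratios under 2-fold were found for Wnt5a, Wnt10b, Wnt4 (log2 ratio of wounded over normal 0.07, -0.03 to 0.17), Wnt6 (0.15, -0.11 to 0.42) and Wnt16 (-0.02, -0.44 to 0.41). Of 9 ligands, 4 were at least 2-fold lower in the wounded library and none at least 2-fold higher, with 8.64% of all genes lower and 13.6% higher. The 4 were Wnt7b (-2.91, -3.24 to -2.58), Wnt3a (-2.11, -2.99 to -1.23), Wnt10a (-1.81, -1.94 to -1.67) and Wnt3 (-1.55, -2.09 to -1.0). These sums also follow the mix of clusters, since Anal Canal made up 432 of 939 normal cells and wounded Basal 573 of 4147 wounded cells, and level and mix were not separated in them.

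Setting clusters of the same name side by side gave large differences. Wounded Basal over normal Basal had 5 of 7 ligands at least 2-fold higher and 2 at least 2-fold lower, with 15.6% of all genes higher and 13.6% lower. The median log2 ratio was 2.94 over the 7 ligands and -0.02 over all genes. Wnt16, Wnt5a, Wnt3 and Wnt7b, with 0, 3, 3 and 6 UMIs in normal Basal, reached 20 UMIs through wounded Basal alone. The count and the median thus lean toward ligands high there. Wnt16 was at least 37.5-fold higher, Wnt5a 13.4-fold, Wnt3 9.43-fold, Wnt7b 7.70-fold and Wnt4 5.26-fold, while Wnt6 was 9.30-fold and Wnt10a 2.22-fold lower. Against normal Anal Canal, which it resembled most, wounded Basal had 2 of 8 ligands at least 2-fold higher and 2 at least 2-fold lower, with 10.2% of all genes higher and 7.02% lower. Here the median log2 ratio was -0.35 over the 8 ligands and -0.02 over all genes. Wnt3 was level between them (log2 ratio -0.01, -0.58 to 0.58). Wnt16 was 3.09-fold higher in wounded Basal (1.63, 1.21 to 2.07) and Wnt5a 2.16-fold higher (1.11, 0.50 to 1.76), Wnt4 was 1.77-fold higher (0.82, 0.70 to 0.94), and Wnt7b and Wnt10a were 2.66-fold and 2.46-fold lower (-1.41, -1.78 to -1.06 and -1.30, -1.52 to -1.07). The fibroblast markers, beside which Wnt5a is read, summed to 79.6 CPM in wounded Basal and 23.5 CPM in normal Anal Canal, with 0 and 4 of 7 at 0, and their part in the Wnt5a difference was not tested.

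**Figure D3:**
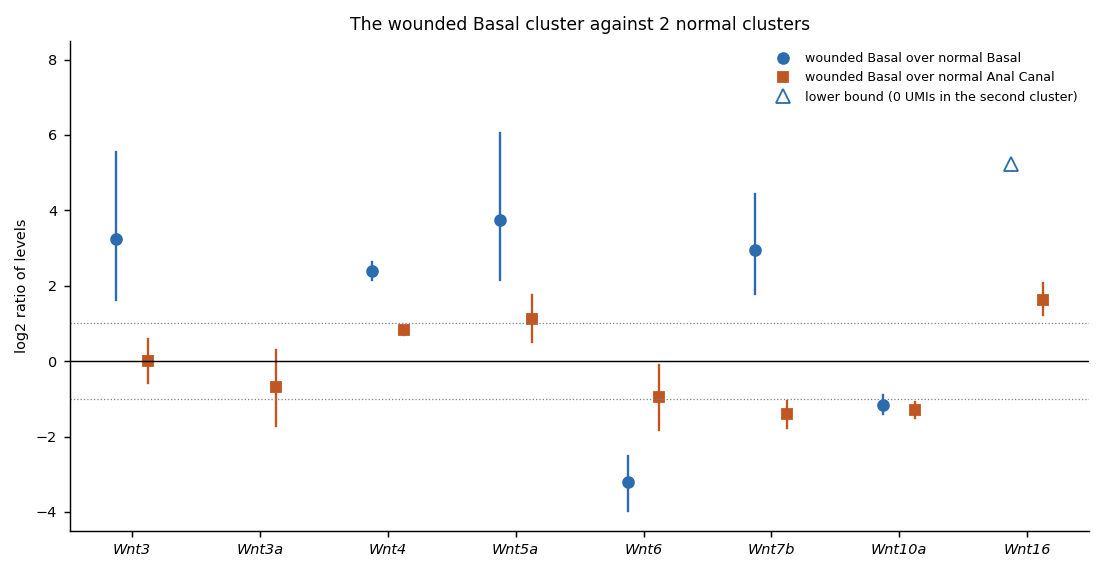
Log2 ratio of the level of each Wnt ligand in the wounded Basal cluster over normal Basal (blue circles) and over normal Anal Canal (orange squares), with 95% binomial intervals as lines, dotted lines at 2-fold and a triangle for a lower bound. Wnt3 is at 3.24 over normal Basal and at -0.01 over normal Anal Canal, and Wnt6 is lower over both, at -3.22 and -0.95.

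Suprabasal, the stratified name whose clusters were most alike in the 2 libraries, had no ligand of 4 at least 2-fold apart, with 16.2% of all genes higher and 5.63% lower. Wnt4 had a log2 ratio of 0.71 (0.47 to 0.97), Wnt10a 0.50 (-0.01 to 1.04), Wnt6 0.47 (-0.27 to 1.29) and Wnt5a -0.24 (-1.46 to 1.19). Regeneration over normal Basal had 1 ligand of 4 at least 2-fold higher and 1 at least 2-fold lower, with 11.6% of all genes higher and 13.8% lower. Wnt10a was 4.29-fold lower (-2.10, -2.34 to -1.86), Wnt6 1.40-fold lower (-0.49, -0.83 to -0.14) and Wnt4 1.34-fold higher (0.43, 0.18 to 0.68), and Wnt5a, the higher ligand with 39 and 3 UMIs, had an interval that held 0 (1.44, -0.22 to 3.77). In Rectum only Wnt4 had enough UMIs, with 40 in the wounded and 0 in the normal cells (at least 2.28-fold higher, as were 11.6% of all genes, with 6.41% lower). The stratified keratins also took a larger percentage of their stratified level in wounded than in normal Rectum, as given above.

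Within a cluster the ligands also differed between cells with fewer and more UMIs of suprabasal markers. Cells of a cluster were divided at the median share of UMIs from the 7 suprabasal markers, and the levels above and below it were compared, as a description, since the division was made on the same cells. In normal Anal Canal, Wnt10a was at 173 CPM (325 UMIs) in the 216 cells below the median and 61.1 CPM (153 UMIs) in the 216 above, a log2 ratio of -1.50 (-1.79 to -1.22). Wnt3a had 19 UMIs below and 2 above, -3.66 (-6.81 to -1.61), and Wnt6 had 21 and 10, -1.49 (-2.74 to -0.34). Wnt4 differed little, with 194 CPM below and 161 CPM above, -0.27 (-0.48 to -0.06), and Wnt7b was at 56.5 CPM below and 37.1 CPM above, -0.60 (-1.02 to -0.19). The intervals of Wnt3 (0.09, -0.81 to 1.02), Wnt5a (0.17, -0.96 to 1.36) and Wnt16 (-0.46, -1.25 to 0.32) held 0. Of 4 basal markers, Col17a1, which anchors cells to the basement membrane, was at 434 CPM below and 171 CPM above, Krt15 at 3608 and 1656 CPM, Krt5 at 4753 and 3136 CPM, and Krt14 at 11613 and 12081 CPM. Wnt10a, Wnt6 and Wnt3a thus had the lowest ratios, 3 of the 4 basal markers were also higher below the median, and Krt14 was not.

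Wnt10a and Wnt6 had low ratios in both wounded clusters, and Wnt3a in wounded Basal. In wounded Basal the log2 ratio was -2.01 (-2.45 to -1.59) for Wnt10a, -2.96 (-5.36 to -1.18) for Wnt6, -2.59 (-5.03 to -0.75) for Wnt3a, -0.86 (-1.66 to -0.07) for Wnt3, -0.68 (-1.33 to -0.03) for Wnt5a, -0.43 (-1.03 to 0.17) for Wnt7b, -0.30 (-0.44 to -0.16) for Wnt4 and 0.25 (-0.13 to 0.64) for Wnt16. Wounded Suprabasal gave the largest contrast, with 107 UMIs of Wnt6 below the median and 12 above (-3.96, -4.96 to -3.10), 201 and 57 of Wnt10a (-2.63, -3.08 to -2.20) and 473 and 792 of Wnt4 (-0.06, -0.23 to 0.10). Below the median, wounded Suprabasal had 2269 CPM of Krt15, 1776 CPM of Krt5 and 225 CPM of Col17a1, against 249, 678 and 31.6 CPM above, while Krt14 went the other way, with 4395 CPM below and 6279 CPM above. Whether wounded Suprabasal pools basal and suprabasal cells, or holds 1 kind of cell in different states, was not tested. Wnt3a had 2 UMIs in this cluster and was not compared. In normal Basal, where suprabasal markers were rare, no ligand with at least 20 UMIs had an interval without 0. There Krt5, Krt14, Krt15 and Col17a1 were all higher above the median, with log2 ratios of 0.27, 0.49, 0.11 and 0.35. The division of normal Basal thus did not set more basal cells below the median, and nothing is read from its ligands. Median depths were 10106.5 and 7034 UMIs above and below in Anal Canal, 11037 and 7653 in wounded Basal and 14196 and 7636.5 in wounded Suprabasal, and their part in the ratios was not tested. Within 10% of the dividing share lay 24, 24 and 36 cells.

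**Figure D4:**
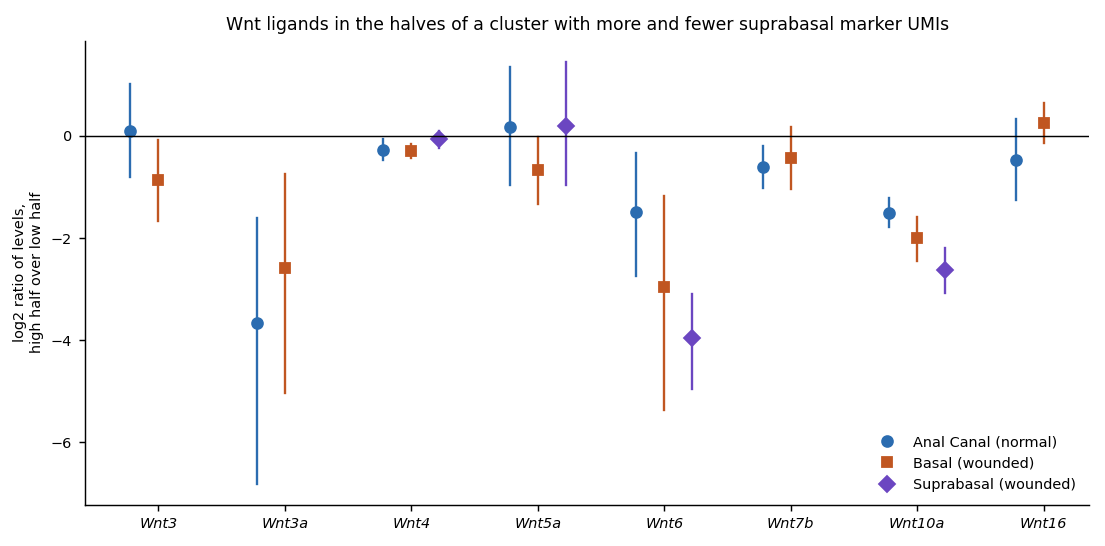
Log2 ratio of the level of each Wnt ligand in the cells with more suprabasal marker UMIs than the median of their cluster over the cells with fewer, in normal Anal Canal (circles), wounded Basal (squares) and wounded Suprabasal (diamonds), with 95% binomial intervals. Values based on fewer than 15 UMIs are left out. Wnt10a is at -1.50, -2.01 and -2.63, while Wnt4 is between -0.30 and -0.06.

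Single cells were compared after each was thinned to 2000 UMIs, which leaves out shallower cells (44 of the normal and 221 of the wounded deposited cells, 132 of the latter in Hybrid, of which 184 cells were kept). A UMI of at least 1 of the 9 ligands was then found in 46.1% of Anal Canal, 31.0% of Basal, 16.4% of Suprabasal and 3.33% of Rectum cells of the normal library. In the wounded library it was found in 53.7% of Basal, 27.4% of Suprabasal, 23.1% of Regeneration, 23.3% of Wound_Stress, 23.4% of Hybrid and 1.69% of Rectum cells. At least 2 ligands were seen in 15.4% of Anal Canal cells and 12.9% of wounded Basal cells, and in 0 to 2.75% of the cells of the other clusters. For Wnt4 alone the share was 27.7% (23.4 to 32.4) in Anal Canal and 43.1% (39.0 to 47.3) in wounded Basal, with 68.5% and 83.1% before thinning, at median depths of 8437.5 and 9075 UMIs. Rectum, the deposited cluster with the lowest summed ligand level in each library, gave 0 of 60 cells in the normal library. This allows a share of up to 5% by the limit of 3 cells (upper Clopper-Pearson bound 5.96%). In the wounded library Rectum gave 0.282%, and the median depths were 10885 and 9991 UMIs. Among the 110 thinned Anal Canal cells with Wnt4, 26.4% also had Wnt10a, against 14.6% of the rest, and 16.4% had Wnt7b, against 7.32%. In wounded Basal, 10.3% of the 243 cells with Wnt4 had Wnt16, against 4.67% of the rest. Wnt16 was in 6.52% of the 46 cells with Wnt10a and 7.14% of the rest, which is 3 cells among the 46. Without thinning, 3 of 14 such pairs changed their order, this one among them.

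Most Wnt5a UMIs were in cells outside the deposited tables. The cells named fibroblast-like by their markers (all 7 found, 25105 and 25813 CPM in sum) had passed a gate against Pdgfra, and numbered 36 in the normal and 193 in the wounded library. They had 82 UMIs of Wnt5a in the normal library, 379 CPM (301 to 470), and 751 in the wounded library, 476 CPM (442 to 511). Wnt4 was the second ligand, at 217 CPM (159 to 289) and 267 CPM (242 to 293). The intervals of the 2 libraries overlapped for both genes. In the wounded library the 193 cells, set against 4147 deposited cells, held 751 Wnt5a UMIs, where the deposited cells held 268. Over all deposited cells of their library, Wnt5a was 93.0-fold and 77.0-fold higher (log2 6.54, 5.98 to 7.12 and 6.27, 6.06 to 6.47), and Wnt4 2.03-fold and 2.37-fold higher. Of the ligands with 20 UMIs, 2 of 8 and 2 of 9 were at least 2-fold higher and 1 and 2 at least 2-fold lower, with 25.9% and 23.5% of all genes higher and 11.5% and 14.7% lower. The lower ligands were Wnt10a in both and Wnt6 in the wounded library, and these reached 20 UMIs through the deposited cells alone.

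Stratified keratins were again set beside the ligands. In wounded fibroblast-like cells Krt14 was at 8.30% and Krt15 at 11.1% of the level in stratified clusters, while Wnt4 was at 217% and Wnt5a at 7046%. Wnt16, with 11 UMIs, was at 110% (54.1 to 200). After thinning, 34.8% (27.9 to 42.2) of the 181 wounded fibroblast-like cells had Wnt4, and Wnt5a was in 52.4% of those with Wnt4 and 55.1% of those without. Before thinning the order was the other way, with 82.5% and 75.9%, so no tie between them is read.

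**Figure D5:**
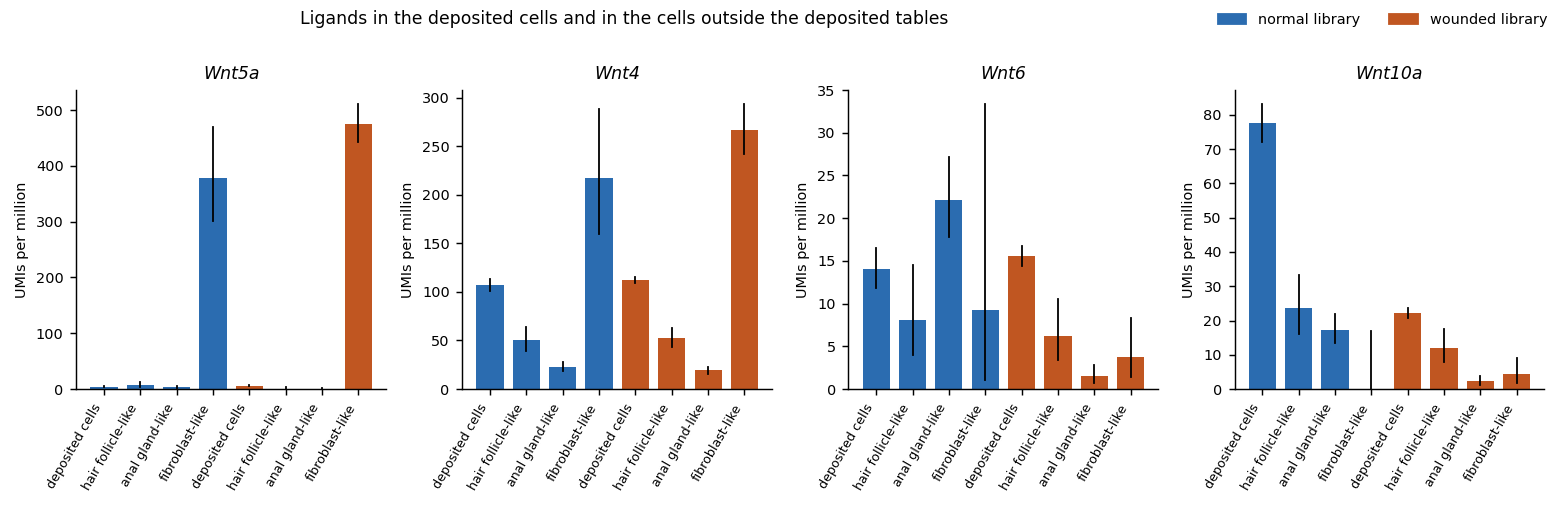
Level of Wnt5a, Wnt4, Wnt6 and Wnt10a, in CPM, in all deposited cells and in the hair follicle-like, anal gland-like and fibroblast-like cells outside the tables, for the normal (blue) and wounded (orange) library, with lines for the 95% Poisson interval. Fibroblast-like cells are highest for Wnt5a, at 379 and 476, and for Wnt4, at 217 and 267. Wnt6 is at 22.1 in normal and 1.51 in wounded anal gland-like cells, 2 classes that held unlike cells (see text).

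Anal gland-like cells, which carried lipid-making genes of the sebaceous kind, had Wnt4, Wnt6 and Wnt10a. In the 332 normal cells these were at 22.8 CPM (18.4 to 28), 22.1 CPM (17.7 to 27.2) and 17.4 CPM (13.5 to 22), and in the 425 wounded cells at 19.2 CPM (16 to 22.8), 1.51 CPM (0.724 to 2.78) and 2.26 CPM (1.27 to 3.74). The intervals of Wnt4 overlapped, and those of Wnt6 and Wnt10a did not. Stratified keratins also differed between the glands, with Krt5 at 514 and 41.5 CPM, Krt15 at 381 and 29.3 CPM, Krt17 at 458 and 61.5 CPM and Krt14 at 3796 and 2022 CPM, and their part in the ligand levels was not tested. In a finer clustering 137 of the normal gland cells fell in a cluster without a name, led by Saa3, Egr4, Pdk4 and Nr4a1. Its gland markers had a mean log2 ratio of 0.26 over the other cells, against 3.41 in the named gland cluster. All 425 wounded cells stayed in gland clusters. The wounded gland cluster as a whole held 660 cells, of which 425 were outside the tables, and the normal one 358, of which 332 were. Many cells of the wounded gland cluster thus carry a deposited name. They count among the deposited cells below, and their part in the comparisons was not tested. Il33 was at 138 CPM in the normal and 32.3 CPM in the wounded gland-like cells, at 134 CPM in Regeneration and at 15.5 CPM in normal Basal. Whether Regeneration was more like some of these normal gland-like cells than like normal Basal was not tested. The 2 gland-like classes thus held unlike cells, and the part of this in the ligand levels was not tested. The remaining normal gland class had 15.8 CPM of Wnt4, 13.4 CPM of Wnt6 and 7.91 CPM of Wnt10a. Against the deposited cells of their library, 6 of 8 ligands were at least 2-fold lower in the normal gland (18.8% of all genes) and 8 of 9 in the wounded gland (27.6%), and none was 2-fold higher (8.16% and 5.43%). Only Wnt4, Wnt6 and Wnt10a in the normal gland and Wnt4 in the wounded gland had 20 UMIs in the gland cells themselves. The other ligands passed through the deposited cells, so these counts lean toward lower ligands. Hair follicle-like cells (185 normal and 262 wounded, the latter from a finer clustering) had Wnt4 at 50 CPM (38.8 to 63.4) and 52.3 CPM (43.2 to 62.6) and Wnt10a at 23.5 CPM (16.1 to 33.2) and 12.1 CPM (7.95 to 17.5). The wounded value pools 2 unlike clusters, of 147 cells (Wnt10a 23.8 CPM, Wnt4 76.2 CPM) and 115 cells (2.44 and 32.6 CPM), and the first, with Lgr5 and Lhx2 among its leading genes like the normal class, had nearly the normal level of Wnt10a. Here 6 of 8 ligands were at least 2-fold lower in the normal library (10.1% of all genes) and 4 of 8 in the wounded library (12.7%), and none was 2-fold higher (13.6% and 12.9%). Only Wnt4 and Wnt10a had 20 UMIs in the hair follicle-like cells themselves, so these counts also lean toward lower ligands.

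The genes that process and receive Wnt ligands were taken as 5 lists. Of the 5 secretion genes, Wls ranged from 54.8 to 109 CPM and Porcn from 1.95 to 7.42 CPM over the 10 clusters, and neither was 2-fold apart between Basal and the other stratified clusters of a library. Tmed5, a cargo receptor, was at 153 CPM in Regeneration and 40.4 CPM in wounded Basal (log2 ratio 1.92, 1.73 to 2.13). Tmed2, of the same family, was 2-fold or more lower in wounded than in normal Basal and Suprabasal, with 134 and 376 CPM in the Basal clusters. It was also lower over all deposited cells (166 and 373 CPM, log2 ratio -1.17, -1.22 to -1.11) and in Rectum (-0.72, -0.93 to -0.51). Outside the tables it was at 379 and 202 CPM in normal and wounded gland-like cells and at 559 and 224 CPM in fibroblast-like cells. Hair follicle-like cells had 330 and 143 CPM. The lower level was thus not limited to the 2 stratified names. The libraries were counted with different Cell Ranger versions and feature sets, and the part of this in Tmed2 was not tested.

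Among the 16 receptors and co-receptors, the Frizzled genes Fzd7 and Fzd3 were low where Wnt3, Wnt7b and Wnt16 were high. This holds for the stratified clusters listed next, and levels in Hybrid and the Rectum clusters are not given here. Fzd7 was at 5.48 CPM in normal Anal Canal and 5.75 CPM in wounded Basal, and at 39.6, 38.6, 38.9, 39.6 and 28.0 CPM in normal Basal, normal Suprabasal, wounded Suprabasal, Regeneration and Wound_Stress. Fzd3 was at 2.74 and 2.61 CPM in the first pair and from 10.4 to 24.3 CPM in the other 5. The log2 ratio of Fzd7 was -2.85 (-3.56 to -2.20) for Anal Canal over Basal and 2.78 (2.28 to 3.34) for Regeneration over wounded Basal. Ror1, a co-receptor for Wnt5a, had 0 UMIs in Anal Canal, 1 in wounded Basal and 140 in Regeneration. Fzd10 went the other way in the wounded library, at 19.2 CPM in wounded Basal and 4.38 CPM in Regeneration (-2.13, -2.62 to -1.65). In Anal Canal over Basal 0 of 11 receptor genes with enough UMIs were at least 2-fold higher and 3 lower, with 8.73% and 10.2% of all genes. In Regeneration over Basal 5 of 15 were higher and 2 lower, with 11.8% and 13.8% of all genes. Their median log2 ratios were -0.23 and 0.41, beside 0.02 and -0.13 over all genes. Rectum, with few ligand UMIs, had 5 of 13 receptor genes lower and 3 higher than the other clusters in the normal library (14.9% and 17.5% of all genes). In the wounded library 8 of 15 were lower and 1 higher (16.0% and 17.9%). Low receptor levels were thus not particular to the clusters with the most ligand.

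Of the inhibitors, Sfrp1, which binds Wnt ligands outside the cell, was at 179 CPM in normal Basal, 51.1 CPM in Anal Canal, 58.5 CPM in wounded Basal, 145 CPM in Regeneration and 160 CPM in Wound_Stress, so it was lower in Anal Canal and wounded Basal than in these other 3. It was also low in Hybrid, at 32.4 CPM, which had fewer ligand UMIs. Sostdc1, which blocks Lrp5 and Lrp6, was at 224 CPM in normal Basal and 52.3 CPM in Anal Canal (log2 ratio -2.10, -2.33 to -1.88). In Anal Canal over Basal 3 of 4 inhibitors with enough UMIs were at least 2-fold lower and none higher (10.2% and 8.73% of all genes), with a median log2 ratio of -1.96, beside 0.02 over all genes. Normal Suprabasal over Basal also had 3 of 4 lower and none higher (17.1% and 6.57% of all genes), with a median of -1.73 beside -0.29. Suprabasal had a lower summed ligand level than Basal, so low inhibitors were not particular to the cluster with the most ligand. In Regeneration over Basal 1 of 7 was higher and 2 were lower (11.8% and 13.8% of all genes), with a median of -0.20 beside -0.13. R-spondins, which raise Wnt signalling through Lgr receptors, had 0 UMIs in the 4 normal clusters, and Rspo2 and Rspo4 also had 0 in the 6 wounded clusters. Their receptor Lgr4 was at 49.1 to 92.3 CPM in the 10 clusters. Lgr6 was at 22.8 CPM in Wound_Stress, 11.2 CPM in Regeneration and 6.27 CPM in wounded Basal, and Wound_Stress over Basal gave 1.86 (1.34 to 2.42). Of the 4 tested genes of this list that comparison had 1 higher and none lower (10.3% and 12.8% of all genes), and Anal Canal over Basal had neither. In wounded fibroblast-like cells over the deposited cells, 1 of 5 was higher and 4 were lower (23.5% and 14.7% of all genes). The levels of R-spondins outside the tables are not given here.

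Axin2, a direct target of beta-catenin, was low throughout. It had 18 UMIs in Anal Canal and 6 in normal Basal (log2 ratio 0.89, -0.51 to 2.51), and 20 in wounded Basal, 95 in Regeneration and 70 in Wound_Stress, which gave log2 ratios of 1.07 (0.36 to 1.84) and 1.43 (0.70 to 2.22) over wounded Basal. The highest levels were those of Rectum, at 12.8 CPM in the normal and 18.7 CPM in the wounded library. Axin2 was thus not highest in the clusters with the most ligand UMIs. Ccnd1, a cell cycle gene, was at 119 CPM in Anal Canal, 103 CPM in wounded Basal and 103 CPM in Hybrid, against 8.87 CPM in normal Basal and 1.92 CPM in Regeneration, while Myc was at 144 CPM in normal Basal, 99.5 CPM in Regeneration, 32.0 CPM in Anal Canal and 17.2 CPM in wounded Basal. Of the tested genes of this list, 1 was at least 2-fold higher and 2 lower of 11 in Anal Canal over Basal (8.73% and 10.2% of all genes), and 2 higher and 2 lower of 11 in Regeneration over Basal (11.8% and 13.8%).

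Over the 10 deposited clusters, the levels of Wnt3 and Wnt16 (r = 0.93) and of Wnt3 and Wnt7b (r = 0.92) on the log2(CPM + 1) scale went together most closely, and those of Wnt16 and Wnt6 least (r = -0.28). These clusters share 2 libraries, differ in depth, and give no test. Of 11606 genes, those most like Wnt3 were Avil, Igfbp7 and Tmprss11d (r = 0.97 to 0.99), most like Wnt16 Caln1, Gm9573 and Krt12 (0.96 to 0.98), and most like Wnt7b Fam111a, Hspbap1 and Serpinb2 (0.96 to 0.97). Wnt4 was most like Mfap3l, Pitx1 and Plxnb1 (0.98), Wnt10a like Ccdc3, the basal keratin Krt15 and Cav1 (0.98), Wnt6 like 1600014C10Rik, Stk3 and Slc3a2 (0.96 to 0.97), and Wnt5a like Vps36, Robo1 and Esco2 (0.94 to 0.95). Wnt3a and Wnt10b had fewer than 100 UMIs and were not ranked.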

How the data were processed

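Unnormalized UMI counts for each barcode were deposited from Cell Ranger (3.1.0 in the normal and 4.0.0 in the wounded header) on mm10. The libraries shared 30406 features, and what the 2 versions add to differences of single genes between libraries was not tested. The authors also gave tables with cluster names, in which each value is a whole number raised by 1 and put on the natural log scale. The step that made these whole numbers is not given in the sources used here, so levels were taken from the counts. Cells had over 200 and under 5000 genes and under 25% mitochondrial UMIs. Cells outside the tables were named by marker lists after clustering with Seurat 5.3.0 (resolution 0.2; 0.4 for wounded hair follicle-like and Hybrid cells), with the Wnt pathway genes left out. Doublets were not removed. The automatic threshold of Scrublet (scanpy 1.11.5) marked 0.194% and 0.0191% of cells. The expected rate was set at 6%, so these shares do not show that doublets were few. Levels, ratios and counts were recomputed without the 108 and 356 cells with the highest scores (below). Co-detection was not recomputed in this way. Ratios of summed counts have exact binomial intervals at 95%. Where 1 group had 0 UMIs the ratio was taken against 3 UMIs as a bound. A gene counts as 2-fold apart with at least 20 UMIs in both groups together. The same filter held for all genes. A gene can pass it through the group where it is high, so counts and medians lean toward such genes. Shares have Clopper-Pearson intervals. On simulated counts for Anal Canal over Basal (10571 genes, 200 changed) 200 directions were recovered. The simulated counts were Poisson draws, which hold counting error only. The recovery thus checks the calculation and does not bear on variation between cells or libraries. The ligands, lists and comparisons were chosen with earlier results of these data known. The comparisons across names, the division of clusters, the Hybrid cells by rebuilt cluster and the finer hair follicle class were chosen after seeing the data. All 9 ligands are named, with Axin2, Lef1, Porcn and Wls, the 3 highest genes of a list or those 2-fold apart with 100 UMIs, and the 3 genes most like each ligand. The R-spondins were named after their values were seen.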

Additional observations from a re-analysis of the deposited data

Results flagged for a closer look

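Wnt6 had opposite signs under 1 contrast in the 2 libraries. Its log2 ratio of Suprabasal over Basal was -2.19 in the normal library (17 and 92 UMIs) and 1.49 in the wounded library (119 and 21 UMIs). The difference between the libraries was not tested, and the 2 clusters named Basal were unlike across genes (r = 0.836). In wounded Suprabasal, 107 of the 119 UMIs were in the cells with suprabasal marker shares below the median. Wnt6 was at 25.4 CPM in those cells and 1.63 CPM in the cells above, so the wounded ratio rests mainly on the cells below.

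Barcodes that failed the filters and enter no comparison also held ligand UMIs. The summed level of the 9 ligands was 64.2 CPM (52.2 to 78.1, 1015 barcodes) in the normal and 32.9 CPM (31.0 to 34.9, 11991 barcodes) in the wounded library, against 237 and 167 CPM in the deposited cells.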

How the results depend on the processing

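No ligand that was 2-fold apart changed the direction of its log2 ratio. Of 139 recomputed counts of ligands 2-fold apart, 129 stayed within 1.5 times, and 505 of 524 log2 ratios stayed within their intervals. Of 216 recomputed levels 33 left their interval. Beside those given in the report, Wnt6 in Hybrid was at 8.17 CPM by the mean of per-cell CPM and 8.07 CPM by the authors' whole numbers (14.8). Wnt4 in wounded Rectum ranged from 5.0 to 17.4 CPM (9.73), and was at 5.15 CPM without the cells with the highest Scrublet scores. Wnt5a in wounded fibroblast-like cells was at 310 CPM when the Wnt genes were kept in the clustering (476). That class then held 330 cells in place of 193, and no class was named smooth muscle, so the 2 values are of different cells. In the normal library no class was named fibroblast when the Wnt genes were kept, nor when cell cycle scores were not adjusted for. The levels of the normal fibroblast-like cells could not be recomputed in those settings. With a pseudocount of 10 CPM, 1 of the 3 most like genes was shared for Wnt3 and for Wnt7b, and 2 or 3 for the other 5 ligands. With at least 50 UMIs the count was 4 in place of 7 in Anal Canal over Basal, 0 in place of 1 in Rectum over Rectum and 1 in place of 2 in Regeneration over normal Basal. With at least 1 UMI it was 2 in Wound_Stress over Regeneration (1), 2 in Suprabasal over Suprabasal (0) and 6 in Regeneration over normal Basal (2). By the mean of per-cell CPM it was 2 in Suprabasal over Suprabasal (0) and 2 in wounded Basal over normal Anal Canal (4). Rectum over Rectum was also 0 under 10% mitochondrial UMIs and without the cells with the highest Scrublet scores. Shares of cells followed the depth of thinning, with 70 of 78 outside their interval, as were all 14 co-detection percentages without thinning, of which 3 changed the order of cells with and without the first ligand. No paired analysis was possible because each condition is 1 library. Depth limits Wnt3a and Wnt10b, which had 24 or fewer UMIs in the deposited cells of each library.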
